A study of Mus musculus with 18 samples.

Results

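The renin-angiotensin and endothelin genes considered here are 8 named genes of the mouse heart, 4 for each system: angiotensinogen (Agt), angiotensin-converting enzyme (Ace), the type 1a angiotensin receptor (Agtr1a), the receptor-associated protein Agtrap, endothelin-1 (Edn1), endothelin-converting enzyme 1 (Ece1) and the endothelin receptors A and B (Ednra and Ednrb). They were taken by name from a table of 30583 genes, all 8 were found, and all 8 passed the filter on low counts, as did 16311 genes in all. RNA-seq read counts were available for 18 male C57BL/6JR mice, 12 weeks old, in 6 groups of 3. In 5 groups the left anterior descending coronary artery, which feeds the front wall of the left ventricle, was tied under pentobarbital to cause a myocardial infarction, and hearts were taken 10 min or 1, 6, 24 or 72 h later. The sham group had the operation and the suture without the tie. RNA came from the infarcted area of the left ventricle. The series text gives 50 mg/kg of pentobarbital for all mice, whereas the labels of the operated mice list doses that climb with the sample order to 63 mg/kg, so dose and time cannot be told apart if those labels hold. Only 1 sham group was sampled, with no stated time after its operation, so effects of the operation at each time cannot be told apart from effects of the ligation.

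As background, angiotensinogen is a secreted precursor that renin cuts to angiotensin I, and Ace turns this into angiotensin II. Angiotensin II acts through the Gq-coupled type 1 receptor, which constricts vessels and drives growth and matrix deposition in the heart, and Agtrap binds that receptor and promotes its internalisation. Endothelin-1 is a vasoconstrictor peptide made chiefly by endothelium from a larger precursor, which Ece1 cuts to its active form. Ednra on muscle cells mediates constriction, whereas Ednrb on endothelium releases nitric oxide and clears the peptide.

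The promoters of the 3 genes with the largest increases at 6 h are shown first, because these genes rose in the same samples. Each window runs from 250 bases before to 50 bases after a RefSeq transcript start (GRCm38.p6), 5′ to 3′ on the gene's strand, at chr8:124569657-124569956 (minus strand) for Agt, chr13:42301226-42301525 (plus strand) for Edn1 and chr14:103843652-103843951 (minus strand) for Ednrb. Capitals mark matches to the motifs searched.
Agt: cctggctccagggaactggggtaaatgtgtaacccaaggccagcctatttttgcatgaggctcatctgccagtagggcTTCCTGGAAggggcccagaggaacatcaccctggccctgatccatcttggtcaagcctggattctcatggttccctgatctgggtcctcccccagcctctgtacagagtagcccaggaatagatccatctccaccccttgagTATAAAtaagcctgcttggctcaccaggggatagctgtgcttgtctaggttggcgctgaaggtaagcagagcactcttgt
Edn1: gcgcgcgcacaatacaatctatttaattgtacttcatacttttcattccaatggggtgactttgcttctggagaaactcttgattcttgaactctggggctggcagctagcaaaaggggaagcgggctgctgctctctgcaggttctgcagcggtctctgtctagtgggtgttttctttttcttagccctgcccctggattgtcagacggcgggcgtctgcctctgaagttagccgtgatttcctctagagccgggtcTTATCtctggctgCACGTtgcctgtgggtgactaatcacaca
Ednrb: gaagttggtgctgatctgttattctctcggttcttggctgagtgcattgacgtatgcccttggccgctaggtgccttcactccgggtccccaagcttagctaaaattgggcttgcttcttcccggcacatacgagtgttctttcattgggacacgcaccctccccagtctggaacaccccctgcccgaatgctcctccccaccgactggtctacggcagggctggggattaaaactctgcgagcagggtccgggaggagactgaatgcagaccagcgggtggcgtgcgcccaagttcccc
The 7 motifs searched on both strands were those of AP-1, spelled TGANTCA, of the GATA factors, which bind in heart and endothelium and whose core is spelled GATAA, of the hypoxia-inducible factors (HIF), spelled ACGTG, of NF-kB, by its usual consensus, of the inflammatory factor C/EBP, spelled TTGCNNAA, of the cytokine-driven STAT factors, spelled TTCNNNGAA, and of the basal promoter element known as the TATA box, spelled TATAAA. The Agt window held a STAT match at bases 79 to 87 and a TATA box match at bases 221 to 226, motifs found in 8.3% and 13.6% of 32851 RefSeq promoter windows of the same length. The Edn1 window held GATA at bases 259 to 263 and HIF at bases 272 to 276, both on the reverse strand and inside the transcribed part, against 25.4% and 19.6% of all windows. The Ednrb window held none of the 7. Of the other members, 1 of the 2 Ace windows held a TATA box match on the reverse strand, Agtrap held HIF on both strands over the same 6 bases, 1 of the 4 Ece1 windows held HIF on both strands and NF-kB (1.63% of all windows), and Ednra held none. AP-1 (7.81% of windows) and C/EBP (10.8%) were found in no window of a member. These matches describe the letters and no binding was measured.

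The libraries held 18199172 to 25062351 counts each. Levels are given as CPM, counts relative to a library total that TMM has adjusted so that the bulk of genes is equal between libraries, and are compared between samples for 1 gene. Levels of different genes are compared only as FPKM, which divides by gene length. A gene was called changed at an adjusted p under 0.05 in edgeR's quasi-likelihood test over all 18 libraries, with Benjamini-Hochberg adjustment over all 16311 genes. The labels name cardiomyocytes as the cell type and myocardial tissue as the source. Cardiomyocyte markers summed to 48800 to 54000 CPM in sham, and markers of fibroblasts (2050 to 2280 CPM), endothelium (1410 to 1540 CPM) and pericytes (1290 to 1320 CPM) were also present, so these are levels of mixed tissue. A list of 5 neutrophil genes summed to 2.31 to 3.58 CPM in sham, to 733, 260 and 96.6 CPM in replicates 1, 2 and 3 at 6 h, and to 152, 35.1 and 652 CPM at 24 h. Replicate 1 at 6 h and replicate 3 at 24 h thus stood apart, and test results resting on either are given without it as well. Dividing by the plain library total shifted the all-gene median of the log2 fold change from -0.01 to -0.12 at 6 h, from 0.01 to 0.20 at 24 h and from 0.03 to 0.61 at 72 h, and turned the split of calls at 72 h from 5572 higher and 5259 lower into 9472 and 2382. At 6 h the split went from 2653 higher and 1986 lower to 1914 and 2802, and at 24 h from 3860 and 3289 to 5558 and 1805.

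No member was called at 10 min or at 1 h, when 0.0736% (0.0307% higher, 0.0429% lower) and 0.294% (0.288% higher, 0.00613% lower) of all genes were called. Neither DESeq2 nor limma on FPKM called a member then. A fit of only the 2 groups compared called 1 at each time (Ednrb and Agt). Over all genes, these fits called 360 of 14510 at 10 min and 190 of 14533 at 1 h. At an unadjusted p under 0.05 there were 0 members at 10 min and 1 at 1 h (Agt). Of all genes in the main test, 1144 at 10 min and 899 at 1 h had an unadjusted p under 0.05. At 6 h, 7 of 8 members were called, 5 higher (Agt, Ednrb, Edn1, Ace, Ece1) and 2 lower (Agtr1a, Agtrap), against 28.4% of all genes (16.3% higher, 12.2% lower). The number dropped to 5 if sham replicate 3 or the first 6 h replicate was omitted. The calls over all genes also dropped then, from 4639 of 16311 to 3408 of 16714 and 2926 of 16738. At 24 h, 5 were called, 3 higher (Agt, Edn1, Ace) and 2 lower (Agtr1a, Agtrap), against 43.8% of all genes (23.7% higher, 20.2% lower). That count was 3 without sham replicate 1 or sham replicate 3 and 2 without replicate 3 at 24 h, the 2 lower ones. Over all genes the calls went from 7149 of 16311 to 5915 of 16754, 6083 of 16714 and 5466 of 16720 in these fits. At 72 h, 6 were called, 2 higher (Edn1, Ace) and 4 lower (Agtr1a, Ednra, Agtrap, Ece1), against 66.4% of all genes (34.2% higher, 32.2% lower), a share near that of the members. With library total scaling the 72 h split was 3 higher and 1 lower, beside 9472 and 2382 of all genes. All 8 differed in the F test over the 5 times, as did 78.4% of all genes, and 6 of 8 did under library total scaling. The median log2 fold change of the 8 was 0.53 at 6 h, 0.22 at 24 h and -0.42 at 72 h, beside medians of all genes of -0.01, 0.01 and 0.03.

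**Figure D1:**
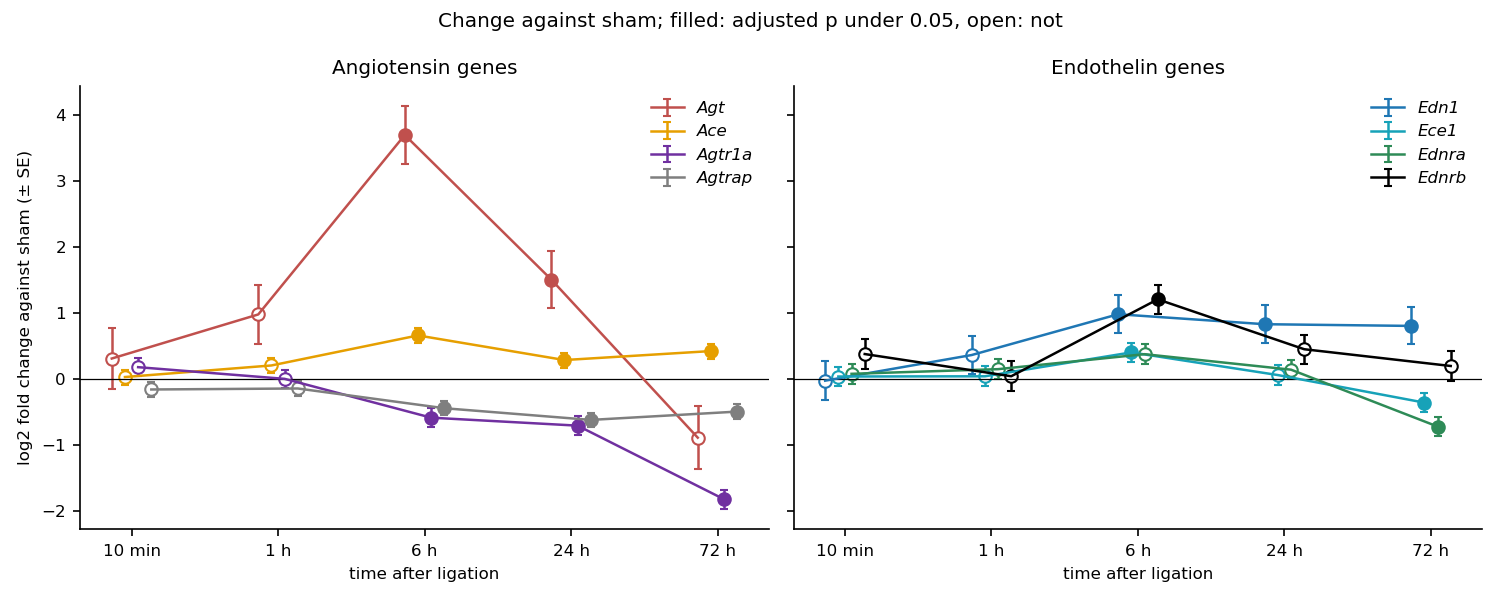
Log2 fold change against sham (y axis, ± SE) of the 4 angiotensin genes (left) and the 4 endothelin genes (right) at each time after ligation (x axis, not to scale), with filled points for an edgeR adjusted p under 0.05. Agt stands highest at 6 h, at 3.70, and Agtr1a lowest at 72 h, at -1.82.

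Between neighbouring times, no member was called from 10 min to 1 h (0.307% of all genes were called, 0.251% higher and 0.0552% lower), nor was one at an unadjusted p under 0.05 or by DESeq2. Of all genes, 1212 had an unadjusted p under 0.05, and DESeq2 called 127 of 16346. From 1 h to 6 h, 4 members were called, with Agt, Ednrb and Ace higher and Agtr1a lower (24.5% of all genes, 14.5% higher and 10% lower). Library total scaling gave 3 higher and 2 lower, beside 1754 and 2085 of all genes. From 6 h to 24 h, 3 were called, all lower, namely Agt, Ednrb and Ace (27.8% of all genes, 14.2% higher and 13.7% lower). Here the count was 1 without replicate 2 at 24 h, 5 without replicate 3 at 24 h and 0 in a fit of these 2 groups alone. Of all genes, these fits called 3607 of 16721, 4089 of 16720 and 1024 of 14810. From 24 h to 72 h, 4 were called, all lower, namely Agt, Agtr1a, Ednra and Ece1 (50.5% of all genes, 24.4% higher and 26.1% lower). Library total scaling gave 2 higher and 3 lower, beside 7285 and 1651 of all genes.

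Agt (ENSMUSG00000031980, chromosome 8, 124556534 to 124569706, minus strand, GRCm38), the substrate of renin, had the largest change of the 8. Its sham libraries held 2.63, 2.23 and 1.87 CPM, from 42 to 52 counts each. The 6 h libraries held 45.1, 10.4 and 32.2 CPM in replicates 1, 2 and 3. All 3 lay above every sham library, but replicate 2 was far below the other two. The increase at 6 h was 13.0-fold (log2 3.70, SE 0.44, edgeR adjusted p = 3.55e-05), and the log2 fold change was 3.25 without replicate 1 and 4.11 without replicate 2, both called.

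Agt came down after this peak. At 24 h the libraries held 7.81, 3.86 and 7.63 CPM, still above sham (2.85-fold, edgeR adjusted p = 0.0108). Without replicate 3 at 24 h the log2 fold change of 1.37 was no longer called (edgeR adjusted p = 0.0539). At 72 h the libraries held 1.23, 1.43 and 0.955 CPM, all below the sham libraries, at a log2 fold change of -0.89 that was not called (SE 0.48, edgeR adjusted p = 0.115), except in a fit of these 2 groups alone (log2 -0.88, edgeR adjusted p = 0.0054). The falls from 6 h to 24 h (4.56-fold, edgeR adjusted p = 0.00107) and from 24 h to 72 h (5.27-fold, edgeR adjusted p = 3.45e-04) were both called, the first not in a fit of these 2 groups alone (edgeR adjusted p = 0.0762).

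Earlier, at 1 h, the 3 Agt libraries (4.15, 5.27 and 3.85 CPM) also lay above every sham library, at a log2 fold change of 0.98 that did not pass the threshold (unadjusted p = 0.0445, edgeR adjusted p = 0.877). Fitted with the sham and 1 h libraries alone it did (edgeR adjusted p = 0.0207). Agt is known as a liver and fat product. Of 7 hepatocyte genes, Alb, Serpina1c and Fgb had at most 3 counts in any library, and the list summed to 1.04 to 1.69 CPM in sham and to 2.5, 1.39 and 2.45 CPM in replicates 1, 2 and 3 at 6 h. Of 5 adipocyte genes, Lep and Ucp1 had at most 3 counts in any library, and the list did not exceed 0.583 CPM. Both lists were added after the Agt values had been seen. A list of 4 atrial genes summed to 91.2 to 207 CPM in sham and to 542, 114 and 286 CPM at 6 h. It includes Nppa, which is also among the genes known to be induced by angiotensin II or endothelin given below. The atrial sums were 562 to 810 CPM at 24 h and 572 to 648 CPM at 72 h, when Agt had come down. A list of 6 arterial or endocardial genes summed to 121 to 131 CPM in sham and 209, 141 and 221 CPM at 6 h. Its sums were 114 to 130 CPM at 24 h and 82.5 to 102 CPM at 72 h. As with Agt, replicate 2 was the lowest of the 6 h libraries in the hepatocyte, atrial and arterial or endocardial sums. It was also the lowest in the endothelial, pericyte, smooth muscle, mast cell, Schwann cell and lung marker sums. It was not in the cardiomyocyte, fibroblast, activated fibroblast, macrophage, neutrophil, epicardial, lymphatic endothelial and adipocyte sums. The part of any of these cells in the Agt values was not tested.

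Ace (ENSMUSG00000020681, chromosome 11, 105967945 to 105989964, plus strand), the enzyme that makes angiotensin II, rose less but at 3 times. It stood at 62.1, 70.8 and 70.6 CPM in sham and at 103, 114 and 106 CPM at 6 h, with no overlap (1.58-fold, log2 0.66, SE 0.11, edgeR adjusted p = 3.71e-04). At 72 h it stood at 100, 93.8 and 79.5 CPM (1.34-fold, edgeR adjusted p = 0.00277). Both calls held in every alternative tried. At 24 h the values of 83.2, 77.3 and 88.4 CPM were also above sham (1.22-fold, edgeR adjusted p = 0.0455), but this call ended when any 1 of the sham libraries or replicate 1 or 3 at 24 h was omitted (edgeR adjusted p = 0.0646 to 0.172). The fall from 6 h to 24 h (1.30-fold, edgeR adjusted p = 0.0193) was lost without replicate 2 at 6 h (edgeR adjusted p = 0.0661) or replicate 2 at 24 h (edgeR adjusted p = 0.0778), and under library total scaling (log2 fold change -0.07, edgeR adjusted p = 0.640). Ace lies on the endothelial surface. Of 9 endothelial markers, 3 were higher and 2 lower at 6 h, when they summed to 1470 to 1990 CPM, and 1 was higher and 7 lower at 72 h, when they summed to 889 to 1120 CPM. The part of these cells in the Ace values was not tested.

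Agtr1a (ENSMUSG00000049115, chromosome 13, 30336441 to 30382867, plus strand), the main angiotensin II receptor of the rodent heart, fell at 6 h, 24 h and 72 h. Its sham libraries held 32.7, 30.9 and 30.8 CPM. At 6 h they held 18.5, 21.8 and 22.6 CPM (1.5-fold lower, edgeR adjusted p = 0.00504) and at 24 h 23.8, 19.4 and 14.5 CPM (1.63-fold lower, edgeR adjusted p = 6.99e-04). No library of either time reached the lowest sham library.

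At 72 h the Agtr1a libraries held 10.1, 8.31 and 8.31 CPM, below all earlier libraries (3.52-fold lower than sham, log2 -1.82, SE 0.15, edgeR adjusted p = 5.49e-09). The step from 24 h to 72 h was itself called (2.16-fold lower, edgeR adjusted p = 4.96e-06), while that from 6 h to 24 h was not (log2 -0.12, edgeR adjusted p = 0.562). All 3 calls against sham held in every alternative tried, with a log2 fold change at 72 h of -1.92 to -1.77 when 1 library was left out. The near-identical paralog Agtr1b had at most 1 count in any library, against at least 261 for Agtr1a, and Agtr2 had at most 6 counts. Any split of reads that Agtr1a and Agtr1b share is uncertain.

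Markers of cells that can carry Agtr1a moved in part with it. Of 8 cardiomyocyte markers, 1 was lower at 6 h, when their sums overlapped sham, 5 were lower at 24 h and 8 at 72 h, when they summed to 12000 to 15900 CPM. Of 7 pericyte markers, 1 was lower at 6 h, 3 at 24 h and 6 at 72 h, with sums of 1060 to 1130, 621 to 855 and 578 to 681 CPM. Of 8 fibroblast markers, 1 was higher and 1 lower at 6 h, 1 higher and 5 lower at 24 h, and 6 higher and 2 lower at 72 h. Their sums were 2040 to 2420, 1030 to 1400 and 1890 to 2260 CPM at these times. Only the sums at 24 h did not overlap those of sham (2050 to 2280 CPM). The part of these cells in the Agtr1a values was not tested. In bulk tissue, fewer cells of a type and less RNA per cell cannot be told apart.

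Agtrap (ENSMUSG00000029007, chromosome 4, 148077061 to 148088031, minus strand), the receptor's binding partner, fell to a smaller degree. It stood at 58.3, 67 and 57.8 CPM in sham, at 43.1, 47.8 and 44 CPM at 6 h and at 45, 40.3 and 34 CPM at 24 h, with no overlap at either time. The decreases were 1.36-fold at 6 h (edgeR adjusted p = 0.00637) and 1.53-fold at 24 h (edgeR adjusted p = 2.83e-04), and both calls held in every alternative. At 72 h the libraries held 46.6, 39.6 and 44.2 CPM, 1.41-fold lower than sham (edgeR adjusted p = 6.73e-04) under TMM, but the direction turned under library total scaling (log2 fold change 0.10 against a median of 0.61 over all genes, edgeR adjusted p = 0.476).

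**Figure D2:**
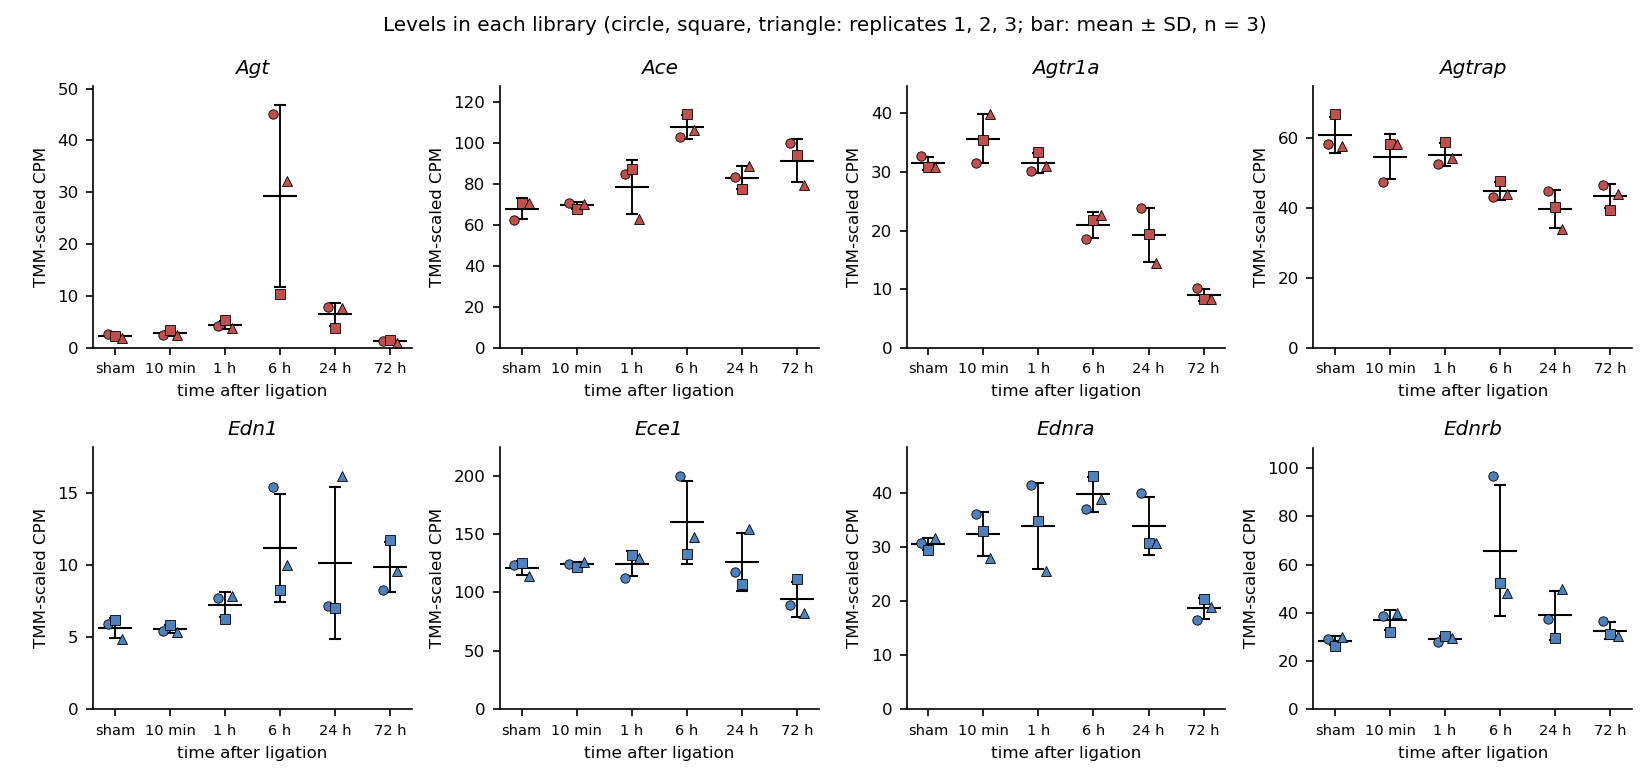
TMM-scaled CPM (y axis) of each member in every library, by group (x axis), for the angiotensin genes (top) and the endothelin genes (bottom), with circles, squares and triangles for replicates 1, 2 and 3 and bars for the mean ± SD of 3. Replicate 1 at 6 h is the highest library of Agt and Ednrb, and the Agtr1a libraries at 72 h lie between 8.31 and 10.1 CPM.

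Edn1 (ENSMUSG00000021367, chromosome 13, 42301476 to 42307990, plus strand), the endothelin-1 precursor, was higher at 6 h, 24 h and 72 h, by 1.98-fold (edgeR adjusted p = 0.0163), 1.78-fold (0.0248) and 1.75-fold (0.0180). The sham libraries held 5.91, 6.17 and 4.84 CPM, from 109 to 119 counts each. At 6 h they held 15.4, 8.23 and 9.96 CPM, at 24 h 7.12, 7.04 and 16.2 CPM, and at 72 h 8.23, 11.7 and 9.61 CPM. Every library from 6 h on lay above every sham library, as did those at 1 h (7.73, 6.22 and 7.81 CPM, edgeR adjusted p = 0.979).

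The highest Edn1 library of each of the first 2 called times was also the one with the highest neutrophil sum. Without replicate 1 at 6 h the log2 fold change went from 0.98 to 0.69 (edgeR adjusted p = 0.106), and without replicate 3 at 24 h from 0.83 to 0.33 (edgeR adjusted p = 0.258). The 72 h call was lost without replicate 2 at 72 h (log2 0.66, edgeR adjusted p = 0.0749). Leaving out sham replicate 3 ended the calls at 6 h (edgeR adjusted p = 0.0683), 24 h (0.0913) and 72 h (0.0718), and leaving out sham replicate 1 that at 24 h (0.0532). Each of the 3 Edn1 calls was thus lost on leaving out a single library. Endothelial markers, from the cells known as the main source of the peptide, summed to 1990, 1470 and 1700 CPM in replicates 1, 2 and 3 at 6 h and to 1100, 1290 and 1360 CPM at 24 h, so the highest Edn1 library of each time also had the highest endothelial sum. The part of either cell type in these values was not tested.

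Ece1 (ENSMUSG00000057530, chromosome 4, 137862237 to 137965229, plus strand), which cuts the endothelin precursor, stood at 123, 125 and 114 CPM in sham and at 200, 133 and 147 CPM at 6 h (1.32-fold, edgeR adjusted p = 0.0486). The 6 h call was lost without any 1 of the sham libraries (edgeR adjusted p = 0.0857 to 0.143) and without replicate 1 at 6 h, when the log2 fold change went from 0.41 to 0.21 (edgeR adjusted p = 0.324). It was also lost with RLE size factors (edgeR adjusted p = 0.0508), library total scaling (0.119) and a fit of these 2 groups alone (0.0683). The limma fit on FPKM did not call it either (limma adjusted p = 0.303). At 24 h the libraries (117, 107 and 154 CPM) overlapped those of sham.

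At 72 h Ece1 stood at 89.3, 111 and 81.9 CPM, 1.28-fold below sham under TMM (edgeR adjusted p = 0.0430). This call was lost without sham replicate 1 or 2 or replicate 1 or 3 at 72 h (edgeR adjusted p = 0.0897 to 0.175) and by DESeq2 (adjusted p = 0.0776). It was also lost with RLE size factors (edgeR adjusted p = 0.0598) and a filter at a mean of 10 counts (0.0507). The direction turned under library total scaling (log2 fold change 0.23 against a median of 0.61 over all genes, edgeR adjusted p = 0.136). The fall from 24 h to 72 h (1.34-fold, edgeR adjusted p = 0.0256) was lost without replicate 3 at 24 h (edgeR adjusted p = 0.141) or replicate 1 or 3 at 72 h (edgeR adjusted p = 0.0795 and 0.122), and was -0.02 on the log2 scale under library total scaling.

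Ednrb (ENSMUSG00000022122, chromosome 14, 103814625 to 103844402, minus strand), the endothelial and clearing receptor, peaked at 6 h. Its sham libraries held 29, 26.2 and 29.9 CPM, and its 6 h libraries 97, 52.2 and 48.1 CPM. All 3 lay above sham, with replicate 1 nearly as high as the other two together. The increase was 2.31-fold (log2 1.21, SE 0.22, edgeR adjusted p = 9.56e-04), and it was still called without replicate 1 at 6 h, at a log2 fold change of 0.82. Replicate 1 at 6 h had the highest neutrophil and endothelial sums of its group, and the part of these cells in its value was not tested.

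At the other times Ednrb was not called against sham. The 10 min libraries (38.8, 32.2 and 39.9 CPM) lay above every sham library (log2 0.38, edgeR adjusted p = 0.813), and passed the threshold in a fit of the sham and 10 min libraries alone (edgeR adjusted p = 0.0385). At 24 h the libraries held 37.5, 29.5 and 49.9 CPM (log2 0.45, edgeR adjusted p = 0.109). This was 0.62 without replicate 2 (edgeR adjusted p = 0.0387), 0.24 without replicate 3 (edgeR adjusted p = 0.452) and 0.64 under library total scaling (edgeR adjusted p = 0.0156), against a median of 0.20 over all genes under that scaling. At 72 h they held 36.5, 31 and 30.3 CPM, all just above sham (log2 0.20, edgeR adjusted p = 0.440). Library total scaling called this difference (log2 0.78, edgeR adjusted p = 0.00212), against a median of 0.61 over all genes under that scaling. The fall from 6 h to 24 h (1.69-fold, edgeR adjusted p = 0.0175) went with overlapping libraries and was lost without replicate 1 at 6 h, when it shrank to -0.37 on the log2 scale (edgeR adjusted p = 0.0965), or without replicate 1 or 2 at 24 h (edgeR adjusted p = 0.0573 and 0.0784).

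Ednra (ENSMUSG00000031616, chromosome 8, 77663031 to 77724464, minus strand), the constrictor receptor, was called against sham at 72 h, when it was lower. Its libraries held 30.7, 29.5 and 31.7 CPM in sham, 37.1, 43.3 and 39 CPM at 6 h and 16.6, 20.4 and 19 CPM at 72 h. The 6 h libraries all exceeded sham, but the difference was not called (log2 0.38, SE 0.15, edgeR adjusted p = 0.0637), except in a fit of these 2 groups alone (edgeR adjusted p = 0.0142). At 72 h all 3 libraries lay below sham, 1.64-fold lower (log2 -0.72, SE 0.15, edgeR adjusted p = 3.54e-04), and below 24 h (1.82-fold, edgeR adjusted p = 9.99e-05). Under library total scaling the 72 h difference from sham was -0.13 on the log2 scale and not called (edgeR adjusted p = 0.436), against a median of 0.61 over all genes. The pericyte markers, which mark cells known to carry this receptor, also fell at 72 h as given above, and of 6 smooth muscle markers 3 were higher and 3 lower. Their part in the Ednra values was not tested.

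**Figure D3:**
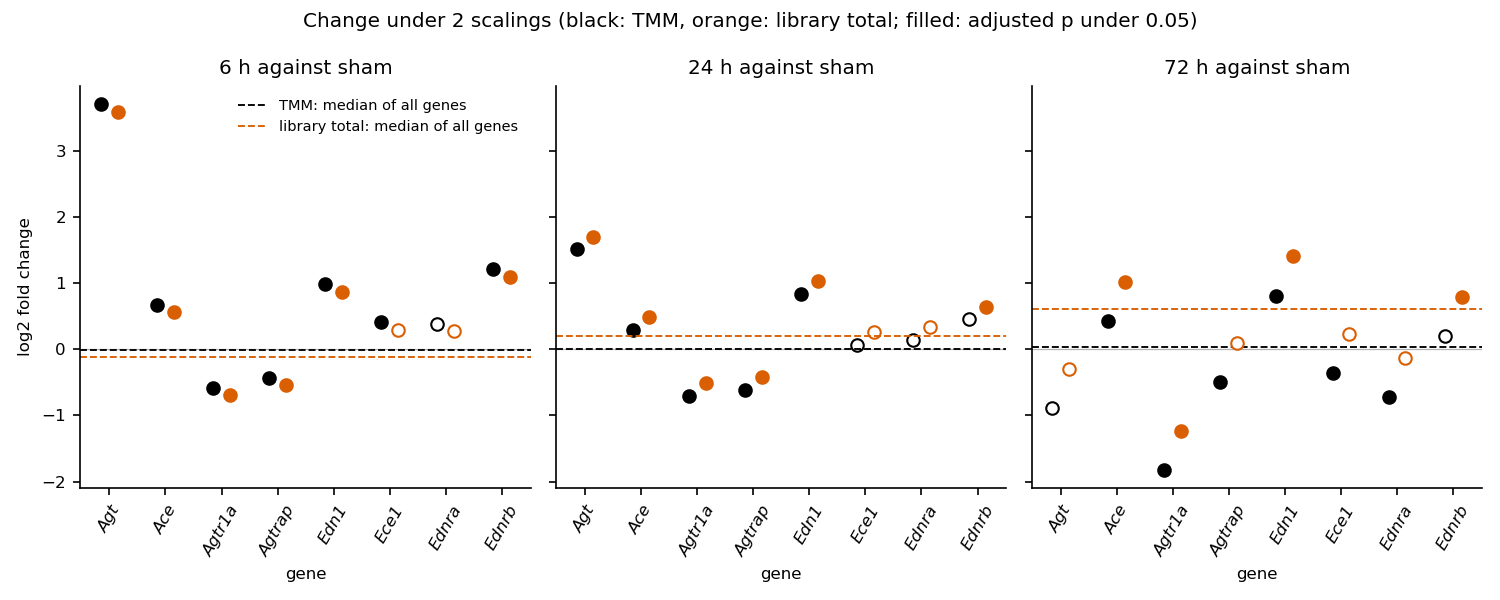
Log2 fold change against sham (y axis) of the 8 members (x axis) at 6, 24 and 72 h under TMM (black) and library total scaling (orange), with dashed lines for the median of all genes under each and filled points for an edgeR adjusted p under 0.05. At 72 h Agtrap and Ece1 lie below 0 under TMM and above 0 under library total scaling, and below the median of all genes under both.

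Strand use in the counting is not stated, and 5 members overlap another annotated gene. Of these partners, 4933431K23Rik at Ednra had at most 89 counts in a library, against at least 439 for Ednra, and Gm13012 at Ece1 at most 26. Those at Ace, Agtr1a and Edn1 had at most 8. Agt, Agtrap and Ednrb overlap no annotated gene in GENCODE M21.

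Per length, Ece1 was the most abundant member in sham, at 21.1 ± 0.42 FPKM (SD, n = 3). It was followed by Agtrap (13.3 ± 0.897 FPKM) and Ace (11.9 ± 1.04 FPKM), whose libraries overlapped, then Agtr1a (10.5 ± 0.363), Ednrb (6.52 ± 0.608), Ednra (5.19 ± 0.335), Edn1 (2.44 ± 0.238) and Agt (1.10 ± 0.165 FPKM), each separate from the next. At 6 h the order was Ece1 (25.8 ± 4.71 FPKM), Ace (17.5 ± 1.53), Ednrb (13.9 ± 5.17), Agt (13.1 ± 7.54), Agtrap (9.14 ± 0.816), Agtr1a (6.48 ± 0.881), Ednra (6.26 ± 0.715) and Edn1 (4.46 ± 1.31 FPKM). Agt thus went from the last place to one that its spread did not set apart from Ednrb or Agtrap. At 72 h Ece1 (24.7 ± 3.86 FPKM) and Ace (23.9 ± 2.15 FPKM) overlapped at the top, Agtr1a (4.44 ± 0.424 FPKM) overlapped Ednra (4.74 ± 0.562 FPKM) and lay below every Edn1 library (6.42 ± 1.19 FPKM), and Agt was last again (0.885 ± 0.163 FPKM). In sham, Agtr1a had been above Edn1 in every library.

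Ratios within a library are free of scaling between libraries. The ratio of Ednra to Ednrb by FPKM was 0.781, 0.831 and 0.782 in sham, 0.282, 0.613 and 0.598 at 6 h and 0.335, 0.484 and 0.462 at 72 h. All libraries of 6 h and 72 h lay below sham, as did those of 10 min (0.686, 0.757 and 0.518), each with an exact two-sided permutation p of 0.1, the smallest that 3 against 3 allows. At 1 h (1.09, 0.848 and 0.641) and 24 h (0.788, 0.769 and 0.455) the libraries overlapped sham. Over the 6 groups the test just missed 0.05 (F = 3.15, permutation p = 0.0508, adjusted over 2 ratios computed 0.0508). Of 18 fits without 1 library, 5 passed. These were without replicate 1 at 6 h (permutation p = 0.0261), replicate 3 at 1 h, replicate 2 or 3 at 6 h, or replicate 3 at 24 h (0.0331 to 0.0460). The rest did not pass, with a permutation p of up to 0.111, without replicate 1 at 72 h.

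**Figure D4:**
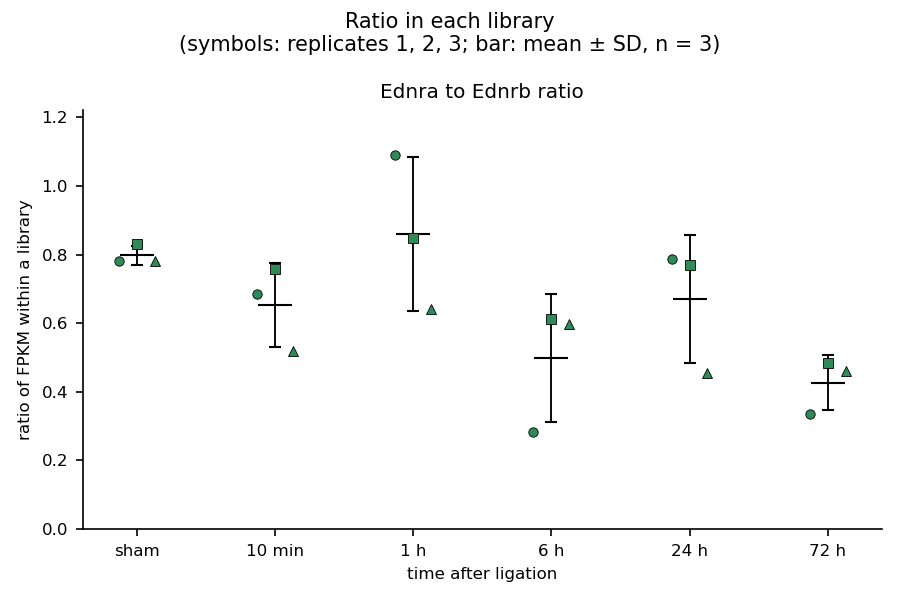
Ratio of Ednra to Ednrb FPKM within each library (y axis) by group (x axis), with symbols for replicates and bars for the mean ± SD of 3. The ratio lies between 0.282 and 0.613 at 6 h and between 0.335 and 0.484 at 72 h, below all sham libraries.

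Other genes of both systems are given from lists chosen with earlier results of these data known. For every list below, the shares of all genes called stand beside the counts. They were 28.4% at 6 h (16.3% higher, 12.2% lower), 43.8% at 24 h (23.7% and 20.2%) and 66.4% at 72 h (34.2% and 32.2%). Under library total scaling, 1914 of 16311 genes were higher and 2802 lower at 6 h, 5558 and 1805 at 24 h, and 9472 and 2382 at 72 h. Of 21 other angiotensin genes, 17 were tested, and 1 was higher and 4 lower at 6 h, 6 higher and 5 lower at 24 h, and 7 higher and 3 lower at 72 h. Library total scaling gave 0 higher and 6 lower, 8 and 3, and 12 and 0. Their median log2 fold changes were -0.24, 0.15 and 0.16, beside the all-gene medians given above. The 6 h count of 5 was 1 without sham replicate 2 or 3, 2 without sham replicate 1 and 3 without replicate 3 at 6 h. In this order, those fits called 3579, 3408, 3213 and 4371 of all genes. The 24 h count of 11 was 6 without sham replicate 2 and 7 without replicate 3 at 24 h, beside 5978 and 5466 of all genes. The genes that remove or divert angiotensin peptides did not move as 1. Anpep, an aminopeptidase, fell 2.21-fold at 6 h (edgeR adjusted p = 1.67e-05) and was 6.03-fold higher at 72 h (edgeR adjusted p = 1.32e-11). Prcp, a carboxypeptidase that trims angiotensin II, was 4.86-fold higher at 72 h (edgeR adjusted p = 3.78e-10). Ren1, the renin gene, had at most 1 count in any library, below the 3 counts that an observed 0 allows by counting error alone, so renin transcripts were not detectable at this depth.

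Of 8 other endothelin genes, 6 were tested, with 2 higher and 1 lower at 6 h, 1 higher and 1 lower at 24 h, and 2 higher and 1 lower at 72 h (2 and 2, 3 and 1, and 3 and 0 under library total scaling). Their medians were 0.03, 0.10 and -0.13. Furin, a protease that makes the first cut in the endothelin precursor, was 2.08-fold higher at 6 h (edgeR adjusted p = 1.33e-04), 1.66-fold at 24 h (0.00140) and 1.41-fold at 72 h (0.0108). Ece2, a second converting enzyme, was 2.21-fold higher at 72 h (edgeR adjusted p = 3.12e-06). The ligand gene Edn2 had at most 4 counts in any library.

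Downstream, 38 genes of Gq-coupled signalling, the route both receptors share, had 8 higher and 3 lower at 6 h, 13 and 7 at 24 h, and 19 and 12 at 72 h (6 and 7, 18 and 4, and 27 and 3 under library total scaling), with medians of 0.02, 0.04 and 0.21. Of all genes, 28.4%, 43.8% and 66.4% were called at these times. Rcan1, an inhibitor and target of calcineurin, was 5.74-fold higher at 6 h (edgeR adjusted p = 7.11e-08), and Prkcb, a protein kinase C found in leukocytes among other cells, 8.40-fold at 72 h (edgeR adjusted p = 1.01e-08), when 7 of 7 macrophage markers were higher, with a sum of 1480 to 1850 CPM against 176 to 201 in sham. Of 20 genes known to be induced by angiotensin II or endothelin, 13 were higher and 1 lower at 6 h, 20 higher at 24 h and 17 higher at 72 h, with medians of 3.46, 2.44 and 2.92. Many signals induce these genes, and they are no measure of either peptide. Among them Col1a1 and Col3a1 were 47.7-fold and 37.4-fold higher at 72 h (edgeR adjusted p = 1.72e-11 and 2.10e-11). Of 9 mineralocorticoid genes, 7 were tested, with 3 higher and 2 lower at 6 h, 2 and 3 at 24 h and 1 and 4 at 72 h (3 and 2 at 24 h and 2 and 3 at 72 h under library total scaling), with medians of 0.27, -0.24 and -0.45. The receptor Nr3c2 fell 3.06-fold at 6 h (edgeR adjusted p = 2.32e-05) and 5.78-fold at 72 h (edgeR adjusted p = 7.02e-09), and Lcn2, which neutrophils also carry, was 59.8-fold higher at 6 h (edgeR adjusted p = 1.60e-06). Of 11 bradykinin genes, 4 were tested, with 1 higher at 6 h and 24 h and 2 higher and 1 lower at 72 h, and medians of 0.28, -0.03 and 0.43. The 6 h call was lost without sham replicate 2 or 3 or replicate 1 or 2 at 6 h, when the count was 0. Cpm, a carboxypeptidase that acts on kinins, was the lower one (2.05-fold, edgeR adjusted p = 2.78e-05), and Xpnpep1 was higher (1.46-fold, edgeR adjusted p = 4.83e-06).

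The 8 members did not share 1 time course. As a description, over 18 libraries that share groups and scaling, Pearson's r of log2 CPM between members ran from -0.774 (Agtrap and Edn1) to 0.830 (Agt and Ece1), and Ednra and Ednrb had 0.322. The genes most like each member among 13729 were Xirp1 (r = 0.979) and Rusc2 (0.959) for Agt, Ppm1k (0.990) and Paqr9 (0.985) for Agtr1a, Ly6g, a neutrophil surface marker (0.954), and Adamts9 (0.932) for Ednrb, and Phka1 (0.951) for Ednra. For Edn1 they were Dhx15 (0.941) and Btg1 (0.931), for Agtrap Stard8 (0.932) and Gstt1 (0.923), for Ace Hpcal1 (0.918) and Ifi205 (0.897), and for Ece1 Crim1 and Kdm6b (both 0.912). Agtr1a had 1186 genes over 0.9, or 8.64% of those compared, whereas Ace had 1.

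**Figure D5:**
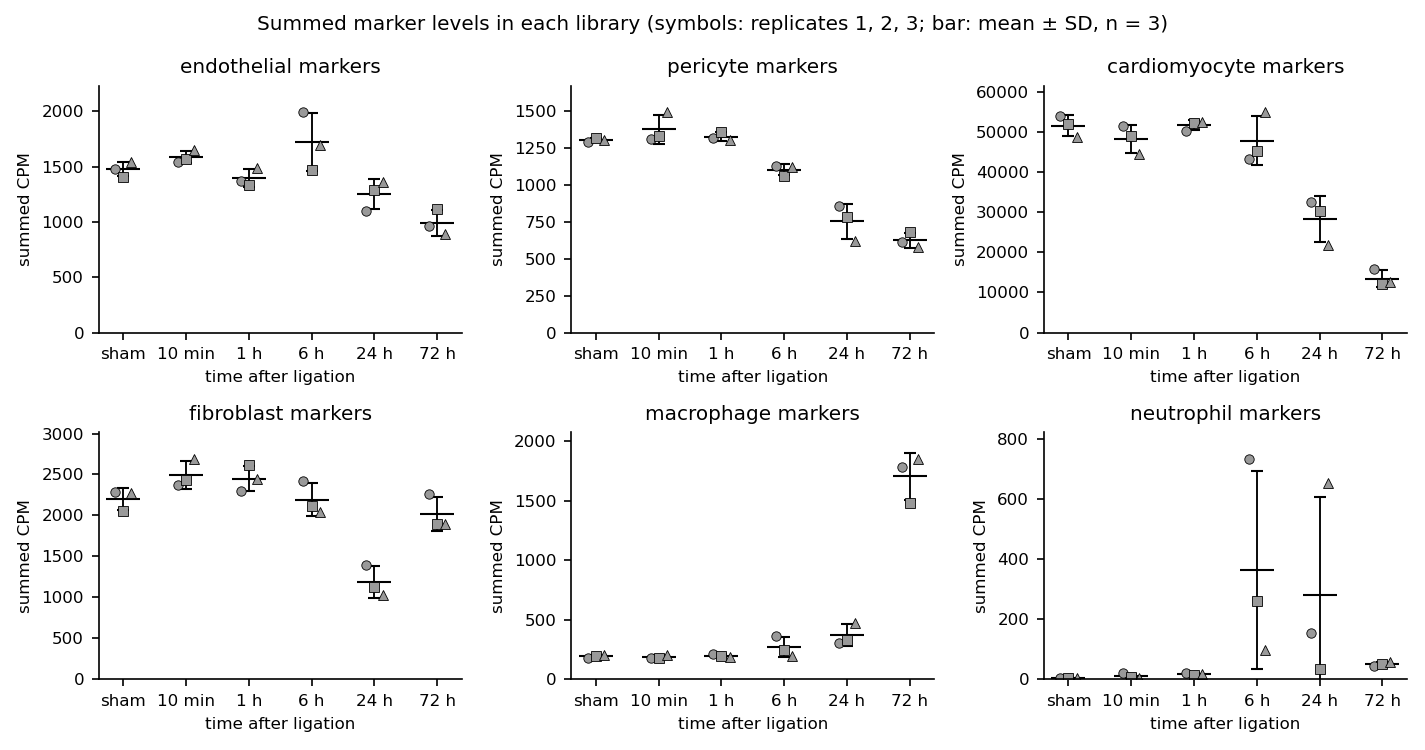
Summed CPM (y axis) of 6 lists of cell type markers in each library, by group (x axis), with symbols for replicates and bars for the mean ± SD of 3. Neutrophil sums are highest in replicate 1 at 6 h (733 CPM) and replicate 3 at 24 h (652 CPM), and cardiomyocyte and pericyte sums are lowest at 72 h.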

How the data were processed

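The authors deposited raw read counts per Ensembl gene and FPKM values. Per the submitters' processing notes, the tools were cutadapt 1.18, HISAT2 2.1.0 and featureCounts, on mm10. The deposited FPKM are the counts over gene length and library total (whole-number lengths for 100% of 10452 genes, within 0.01 bases). At 6 h, FPKM labelled replicate 2 match the counts of replicate 3 and the reverse, so single-library FPKM were reassigned by the counts. Which of the 2 is labelled rightly is not known, so replicate numbers 2 and 3 at 6 h follow the counts here, and values of the group do not depend on it. Symbols and positions came from GENCODE M21 (30489 of 30583 IDs matched). No column was left unmatched to a sample.

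Counts were tested with edgeR 4.0.16 in R 4.3.3 (TMM, filterByExpr, robust quasi-likelihood fit of 6 groups, 12 residual degrees of freedom, Benjamini-Hochberg over 16311 genes). Ratios of FPKM used 100000 permutations, or exact permutation for 3 against 3. Alternatives were RLE size factors, library total, no filter or a mean of 10 counts, DESeq2 1.42.0, limma 3.58.1 on log2(FPKM + 1) (a scale that understates changes of low genes), only the 6 libraries compared, a replicate block, leaving out each library and, for ratios, raw counts or 0.1 added to FPKM. The test was checked on simulated counts. All members were named. From each list the 2 genes with the smallest p over all times were named, and the 2 genes most like each member. A second ratio and 1 gene under this rule are not reported here. The labels give no batch. The edgeR p-values set each group difference against the spread between mice within the 6 groups. The ratio p-values come from permuting libraries between groups.

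The members and lists were chosen with earlier results of these data known. Hepatocyte and adipocyte lists and the list alternatives were chosen after values were seen. RefSeq gave promoters for 7 of 8 members.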

Additional observations from a re-analysis of the deposited data

How the results depend on the processing

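Agt at 6 h, Ace at 6 h and 72 h, Agtr1a at 6 h, 24 h and 72 h, Agtrap at 6 h and 24 h and Ednrb at 6 h kept their direction and their call under every alternative run. With only the 6 libraries compared, 1 member was called at 10 min (Ednrb), 1 at 1 h (Agt) and 0 from 6 h to 24 h. These fits called 360 of 14510, 190 of 14533 and 1024 of 14810 genes. From 6 h to 24 h, library total scaling and limma on FPKM each called 1 member, beside 6880 of 16311 and 5329 of 30583 genes. With no filter on low counts 3 were called at 24 h, beside 6505 of 30583 genes. Leaving out each library in turn gave 5 to 7 members at 6 h, 2 to 6 at 24 h, 5 in each fit at 72 h and 1 to 5 from 6 h to 24 h. Over all genes these fits called 2926 to 4655 at 6 h, 5466 to 7566 at 24 h and 3607 to 5028 from 6 h to 24 h.

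Differences that turned sign were small or depended on scaling. Agtr1a at 1 h was -0.0215 (library total), -0.00914 (no filter) and -0.0201 (limma) in place of 0.00511. Under library total and limma, Agtrap at 72 h was 0.0969 and 0.0889 and Ece1 at 72 h 0.232 and 0.211. Leaving out each library gave ranges across 0 for Ace at 10 min (-0.0256 to 0.0639), Agtr1a at 1 h (-0.0374 to 0.0356), Edn1 at 10 min (-0.123 to 0.046), Ednra at 10 min (-0.000577 to 0.176) and 1 h (-0.0189 to 0.32), Ednrb at 1 h (-0.00952 to 0.0855) and Ece1 at 24 h (-0.103 to 0.165).

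The largest log2 difference of the Ednra to Ednrb ratio from sham, -0.92, ran from -1.02 to -0.765 without 1 library (permutation p = 0.0261 to 0.111). Permuting within replicate numbers (a replicate block) gave the same -0.92 with a permutation p of 0.0226. The numbers did not pair the samples: same-numbered libraries had a median r of deviations of 0.0101, 0.0476 and 0.035, the lowest -0.256, and 9 of 18 libraries were nearest their own number. With the block in edgeR, Ace at 24 h (adjusted p = 0.0507) and Ece1 at 6 h (0.0684) and 72 h (0.0595) were not called, and no other call against sham changed.

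For the lists, with alternatives chosen after seeing the data, limma called 2 other angiotensin genes at 6 h (1 to 4 without 1 library, and 6 to 9 at 24 h). Library total and limma each called 4 other endothelin genes at 24 h. Of the bradykinin genes at 6 h, library total called 0, the 6 libraries alone 0 and DESeq2 2 (0 to 1 without 1 library), and limma called 2 at 24 h and 7 at 72 h. The limma fit had no filter on low counts, so its 72 h count includes bradykinin genes that the main test left out. At 72 h it called 10899 of 30583 genes higher and 2320 lower. The cause of these shifts was not tested. Agt in sham rests on 42 to 52 counts and Edn1 on 109 to 119, which limits the precision of both, and 3 mice per group limit all tests.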
